A study of Mus musculus with 48 samples.

Results

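Fibronectin (Fn1) and 9 other genes for proteins of the extracellular matrix were followed in airspace macrophages, the macrophages washed from the lung lumen by bronchoalveolar lavage. The 10 genes were taken by name as a set, with earlier results of these data known. They were Fn1, the matricellular genes Thbs1, Tgfbi, Sparc and Ecm1, the galectin gene Lgals3, and the collagen genes Col4a1, Col4a2, Col1a1 and Col14a1. All 10 are among the 24411 genes of the deposited table, and all 10 were among the 12634 that passed the filter on low counts. The 24 mice were male, 12 wild type (WT) and 12 Siglec-F knockout (KO), which lack a receptor for sialic acids carried by alveolar macrophages. Naive mice, marked in the labels as saline controls at day 0, received saline, and the others received bleomycin, a drug that injures the lung, into the trachea at 2.5 units/kg and were sampled at day 7, day 14 or day 21. Each of the 8 groups of genotype and time held 3 mice. The study asks what Siglec-F does in these cells after lung injury. The animals' age, the strain background, how the knockout was made, and how macrophages were separated from other lavage cells were not given in the sources used here.

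The extracellular matrix is the protein scaffold around cells. Fibronectin is a large secreted glycoprotein that cells assemble into fibrils through integrins, and collagens and growth factors bind to it. Matricellular proteins such as thrombospondin 1, the TGF-beta-induced protein, SPARC and extracellular matrix protein 1 are secreted into the matrix without being its main structural part, and they modify adhesion, growth factor activity and collagen assembly. Collagen IV forms the sheet of basement membranes, collagen I the thick fibrils of scar tissue, and collagen XIV binds along such fibrils. Fibroblasts are the classical source of fibrillar collagen in the fibrotic lung, while macrophages are known to secrete fibronectin, thrombospondin 1 and galectin 3.

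The libraries held 24877049 to 47457085 counts each. Rn45s, a ribosomal RNA gene, made up 0.743 to 8.19% of the counts of a library. Siglecf, the deleted gene, had 12375 to 20368 counts in WT naive mice and 0 to 25 counts in the 12 KO mice. The summed level of 8 general airspace macrophage markers was 20052 to 47256 CPM (counts rescaled so that TMM-adjusted libraries have equal totals) in the 24 mice, with none of the 8 at 0 in any group. The first principal component of all tested genes, with 51.5% of the variance, placed naive mice between -98 and -89 and WT mice after bleomycin between 24.2 and 54.5. Among KO mice after bleomycin, day 14 mice 2 and 3 (3.5 and -19) and day 21 mouse 1 (-23.8) lay between these ranges, below every other mouse given bleomycin. These mice are named below where they stand apart in a gene of the set.

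The stretches of DNA before the RefSeq starts of Ecm1, Tgfbi and Lgals3 are shown because, among the genes of the set with a promoter entry, these are the ones with most of the window outside annotated exons. As described below, Ecm1 was called higher than naive by more than 10-fold, Tgfbi by less, and Lgals3 was not called. RefSeq promoter entries (assembly GRCm38.p6) were found for 6 of the 10 genes. The 250 bases before the Ecm1 start, chr3:95739570-95739819 on the minus strand, overlap no exon. The Tgfbi stretch is the 187 bases chr13:56609336-56609522 on the plus strand, and the Lgals3 stretch the 203 bases chr14:47373610-47373812 on the plus strand, in both cases the bases of the window not covered by the gene's own exons. The RefSeq start used for Lgals3, 47373860, lies inside the gene model given below (47367751 to 47386160), so its stretch lies within the gene. Capitals mark matches to the AP-1 motif TGANTCA, the SP1 motif GGGCGG and the TATA motif TATAAA, searched on both strands.
Ecm1: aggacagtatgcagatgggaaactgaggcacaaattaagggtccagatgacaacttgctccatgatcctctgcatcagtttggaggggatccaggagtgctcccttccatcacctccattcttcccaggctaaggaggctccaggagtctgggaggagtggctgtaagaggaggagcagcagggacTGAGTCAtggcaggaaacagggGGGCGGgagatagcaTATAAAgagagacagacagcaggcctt
Tgfbi: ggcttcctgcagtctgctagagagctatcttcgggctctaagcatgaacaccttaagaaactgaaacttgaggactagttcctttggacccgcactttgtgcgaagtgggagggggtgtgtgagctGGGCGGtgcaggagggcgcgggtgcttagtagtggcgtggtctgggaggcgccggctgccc
Lgals3: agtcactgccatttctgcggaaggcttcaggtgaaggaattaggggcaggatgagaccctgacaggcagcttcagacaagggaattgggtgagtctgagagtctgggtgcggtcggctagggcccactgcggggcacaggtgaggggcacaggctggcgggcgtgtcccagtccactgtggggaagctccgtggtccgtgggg
In the Ecm1 window the AP-1 match begins 64 bases, the SP1 match 42 bases and the TATA match 27 bases before the start. The Tgfbi stretch holds 1 SP1 match, and the Lgals3 stretch holds none of these letters. The whole Lgals3 window of 250 bases has an SP1 match 7 bases before the start, among the exonic bases not printed. Of 32851 whole promoter windows of 250 bases, longer than the Tgfbi and Lgals3 stretches, 6.75% hold the AP-1 letters, 32.7% the SP1 letters and 12.4% the TATA letters. A match describes letters only and shows no binding.

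After bleomycin, genes of the set rose in both genotypes, and none was called lower than naive. A gene was called where the edgeR quasi-likelihood test, with Benjamini-Hochberg adjustment over all tested genes, gave an adjusted p under 0.05. In WT mice 7 of the 10 genes were called higher than naive at day 7, where 20.2% of all tested genes were, 6 at day 14 (18.7% of all genes) and 7 at day 21 (18.8%). In KO mice the counts were 5 at day 7 (19.7% of all genes), 6 at day 14 (12% of all genes) and 6 at day 21 (15% of all genes). Of all tested genes, 15.3%, 13.4% and 13.7% were called lower on the 3 days in WT mice and 14.4%, 4.84% and 6.89% in KO mice. Fn1, Thbs1, Tgfbi, Ecm1 and Col4a1 were called higher in all 6 comparisons. The median log2 fold change over the set was 1.97, 3.77 and 3.72 in WT mice and 1.85, 2.95 and 3.78 in KO mice, beside medians of 0 to 0.02 over all tested genes. Col1a1, which had no count in naive mice, was then set to its bound of 3 counts over the naive group. Where neither group held more than 3 counts, its change was set to 0. The medians were then 1.97, 3.77 and 3.1 in WT mice and 1.85, 2.42 and 2.64 in KO mice. The 3 comparisons of a genotype share its naive mice, so their values are given side by side. In such bulk samples, fewer cells of a type and less RNA per cell cannot be told apart.

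**Figure D1:**
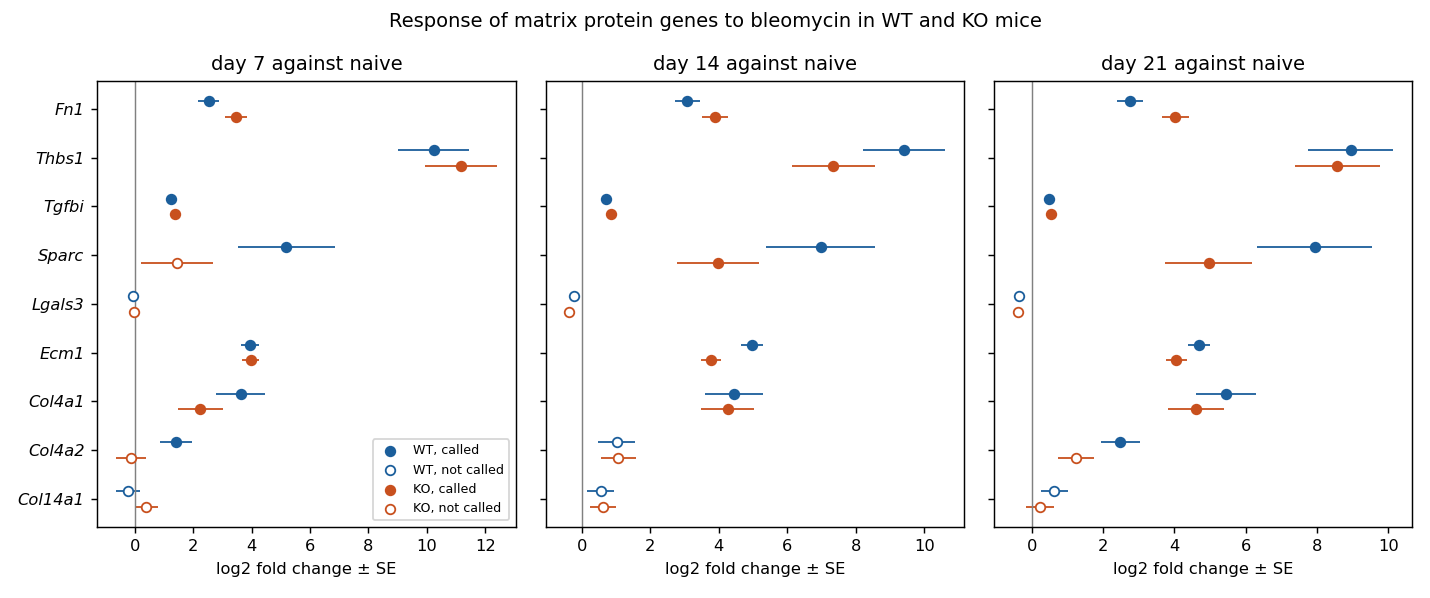
Log2 fold change against naive mice of the same genotype (x axis, bars are the standard error of the edgeR fit) for 9 genes of the set at day 7, 14 and 21, in WT (blue) and KO (orange) mice; filled points passed an adjusted p of 0.05. Thbs1 lies farthest to the right. Sparc has the widest bars in WT mice, and in KO mice those of Sparc and Thbs1 are alike. Tgfbi, right of 0 and called on each day, and Lgals3, near 0 and not called, have narrow bars. Col1a1 is left out because its naive mice had no counts.

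Fn1 (ENSMUSG00000026193.15; mm10 chromosome 1, 71585520 to 71653200, minus strand, 46 exons), which encodes fibronectin, was already well expressed in naive mice and rose several-fold after bleomycin. WT naive mice 1, 2 and 3 had 671, 1339 and 907 CPM, and KO naive mice 439.9, 805 and 576 CPM. WT mice had 3931, 7806 and 5066 CPM at day 7, 5785, 9342 and 9555 at day 14, and 7545, 5888 and 6247 at day 21. KO mice had 5157, 8735 and 6112 CPM at day 7, 8858, 10507 and 7463 at day 14, and 4780.4, 13264 and 11630.3 at day 21. All 18 mice given bleomycin lay above all 6 naive mice. The log2 fold changes against naive were 2.53 (SE 0.35), 3.08 (SE 0.36) and 2.75 (SE 0.36) in WT mice and 3.46 (SE 0.37), 3.88 (SE 0.38) and 4.03 (SE 0.38) in KO mice, with adjusted p from 3.1e-07 to 1.7e-05. Fn1 transcripts made up 0.0467 to 0.146% of all counts in naive mice and 0.373 to 1.25% after bleomycin. In the naive and day 7 groups of both genotypes, the order of the mice by Fn1 was opposite to that by Rn45s share. In the WT naive mice, for instance, that share was 6, 0.743 and 2.59%. At day 14 and day 21 the orders were not opposite. The part of library composition in the Fn1 values was not tested.

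Fn1 did not differ between bleomycin days beyond the spread of the mice in either genotype. From day 7 to day 14 the log2 change was 0.55 (SE 0.34, adjusted p = 0.36) in WT mice and 0.42 (SE 0.34, adjusted p = 0.44) in KO mice. The KO day 21 mice had the widest spread of any group, 9891 ± 4501 CPM (SD, n = 3), with mouse 1, the lowest of the bleomycin mice on the first component, lowest.

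**Figure D2:**
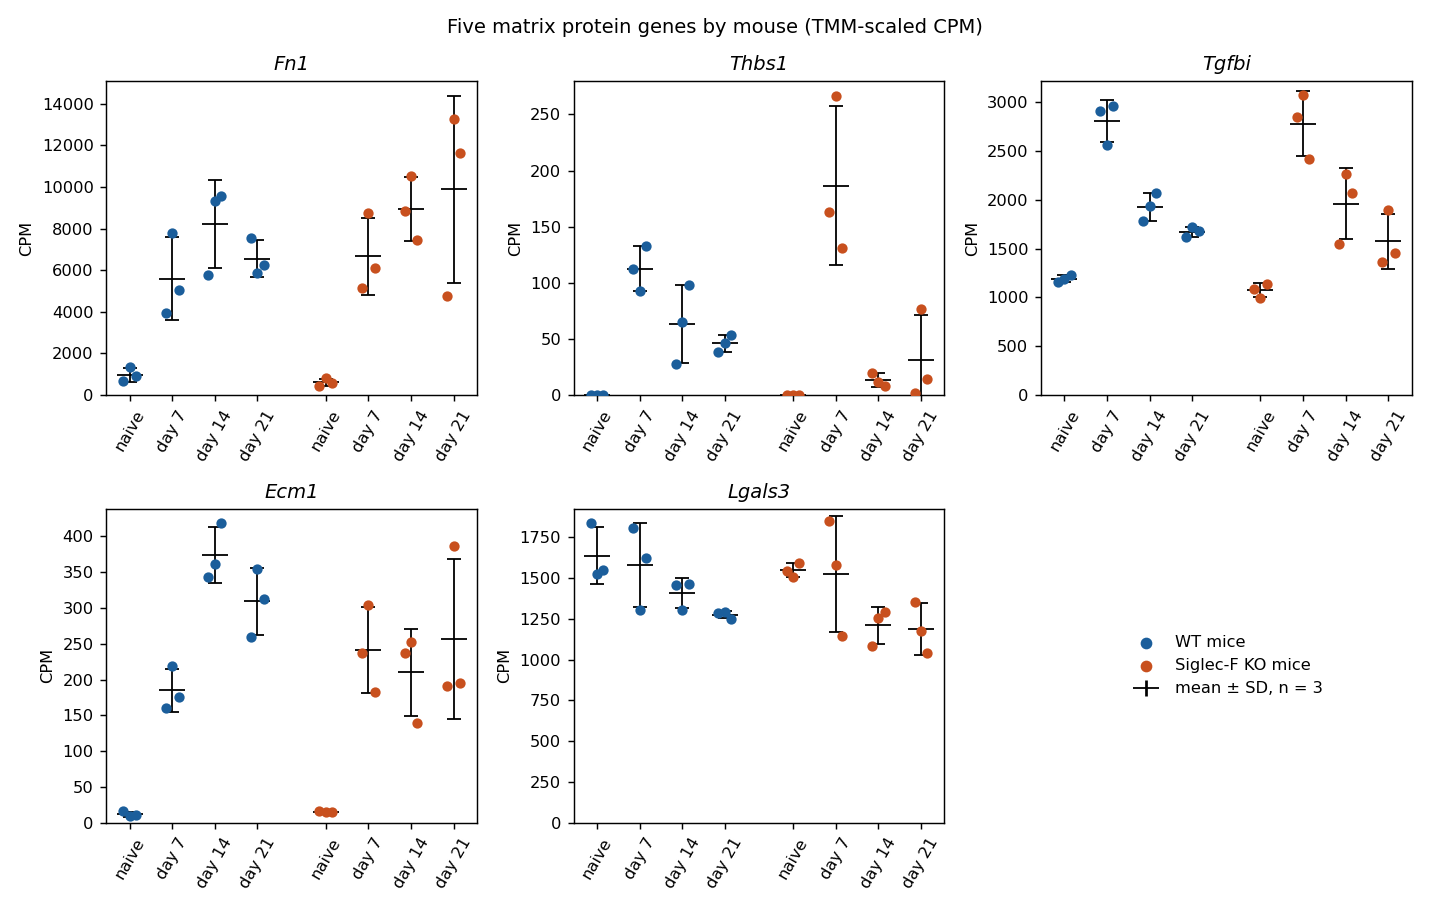
CPM of Fn1, Thbs1, Tgfbi, Ecm1 and Lgals3 (y axes start at 0 and differ in range) in each of the 24 mice by group (x axis); points are mice, black bars the mean ± SD of 3 mice, cut at 0. Fn1 and Ecm1 stay high from day 7 to day 21, Tgfbi is highest at day 7, Thbs1 appears at day 7 and is lower later, and Lgals3 is at a like level in naive and day 7 mice.

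Thbs1 (ENSMUSG00000040152.8; mm10 chromosome 2, 118111876 to 118127133, plus strand, 22 exons), which encodes thrombospondin 1, an activator of latent TGF-beta and inhibitor of vessel growth, was nearly absent from naive mice. The 3 WT naive mice held 3, 1 and 6 counts and the 3 KO naive mice 7, 2 and 1. WT mice reached 112, 92.7 and 133 CPM at day 7, 27.9, 65 and 97.7 at day 14, and 38.6, 46.4 and 53.8 at day 21. KO mice reached 163, 266 and 131 CPM at day 7, 20.1, 11.6 and 8.11 at day 14, and 1.79, 76.8 and 14.6 at day 21. All 18 mice given bleomycin were above every naive mouse, and the KO mice of day 21 ranged from 1.79 to 76.8 CPM, where the highest naive mouse had 0.161.

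Taken from summed counts, the Thbs1 level in WT mice was 1220 times that of naive mice at day 7 (95% counting interval 665 to 2550), 710 times at day 14 (386 to 1480) and 509 times at day 21 (276 to 1060). In KO mice the ratios were 2400 (1310 to 5010), 162 (87.6 to 338) and 372 (202 to 777). These intervals cover counting error only, and reads without molecular identifiers are not independent molecules. The log2 fold changes of the fit ran from 7.34 (SE 1.21, adjusted p = 2e-04) at KO day 14 to 11.16 (SE 1.22, adjusted p = 7.4e-07) at KO day 7. Of 6 other tools, filters and designs tried, limma-voom called 0 of these 6 comparisons (adjusted p 0.053 to 0.3), and the other 5 called all 6.

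In KO mice Thbs1 fell from day 7 to day 14, with a log2 fold change of -3.82 (SE 0.76, adjusted p = 0.002). It was also lower at day 21 than at day 7 (-2.59, SE 0.71, adjusted p = 0.017), a call that was lost without KO day 7 mouse 2 (adjusted p = 0.065) or KO day 21 mouse 3 (adjusted p = 0.079), and when fitted without the other groups (adjusted p = 0.2). In WT mice the change from day 7 was -0.82 (SE 0.68, adjusted p = 0.53) at day 14 and -1.28 (SE 0.68, adjusted p = 0.24) at day 21. The WT mice of day 21 lay below those of day 7 without overlap, and the fit without the other groups called that fall (-1.29, adjusted p = 0.0018). Whether the fall from day 7 differed between the genotypes was not tested. Of 10 genes of the set, 1 was called higher and 2 lower from day 7 to day 14 in KO mice, where 6.79% and 8.22% of all genes were. From day 14 to day 21 edgeR, DESeq2 and limma-voom called 0 genes of the set in either genotype, and edgeR called 0% of all tested genes. By edgeR 1 gene of the set in each genotype had an unadjusted p under 0.05, beside 3.86% of all tested genes in WT and 5.73% in KO mice.

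Tgfbi (ENSMUSG00000035493.10; mm10 chromosome 13, 56609523 to 56639562, plus strand, 17 exons), which encodes a secreted adapter between collagens and integrins induced by TGF-beta, rose more than 2-fold at day 7 and then fell in both genotypes. Naive mice had 1155, 1184 and 1228 CPM in WT and 1089, 997 and 1141 in KO. By day 7 WT mice had 2909, 2559 and 2955 CPM and KO mice 2846, 3067 and 2413. At day 14 the values were 1779, 1938 and 2065 in WT and 1551, 2258 and 2069 in KO, and at day 21 they were 1616, 1718 and 1677 in WT and 1364, 1897 and 1457 in KO. All 18 bleomycin mice were above all 6 naive mice, and all 6 mice of day 7 were above all 12 of the later days.

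The log2 fold change of Tgfbi against naive was 1.24 (SE 0.13, adjusted p = 6.4e-07), 0.7 (SE 0.13, adjusted p = 0.00041) and 0.49 (SE 0.13, adjusted p = 0.0069) on the 3 days in WT mice. In KO mice it was 1.37 (SE 0.13, adjusted p = 1.7e-07), 0.86 (SE 0.13, adjusted p = 7.8e-05) and 0.55 (SE 0.13, adjusted p = 0.0047). Tgfbi fell from day 7 to day 14 by 0.54 on the log2 scale in WT mice (adjusted p = 0.017) and by 0.5 in KO mice (adjusted p = 0.013). From day 7 to day 21 it fell by 0.75 (adjusted p = 0.00086) and 0.82 (adjusted p = 0.00032). Over those days 0 genes of the set were called higher and 1 lower in WT mice (5.49% and 6.15% of all genes), and 2 higher and 2 lower in KO mice (7.16% and 7.73%). The fall to day 14 missed the threshold without 1 of several mice: WT day 7 mouse 1 (adjusted p = 0.057) or 3 (adjusted p = 0.071), WT day 14 mouse 1 (adjusted p = 0.092) or 2 (adjusted p = 0.055), KO day 7 mouse 1 (adjusted p = 0.053) or 2 (adjusted p = 0.065), and KO day 14 mouse 1 (adjusted p = 0.058). The KO fall to day 14 also missed it when fitted without the other groups (adjusted p = 0.093).

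Ecm1 (ENSMUSG00000028108.15; mm10 chromosome 3, 95734147 to 95739569, minus strand, 11 exons), which encodes extracellular matrix protein 1, a binder of basement membrane proteins and of latent TGF-beta, rose more than 10-fold in both genotypes. Naive mice had 16.2, 9.49 and 10.4 CPM in WT and 16.6, 14.8 and 14.8 in KO. WT mice had 160.5, 219 and 175 CPM at day 7, 343, 361 and 418 at day 14, and 260.1, 354 and 313 at day 21. KO mice had 237, 304 and 183 CPM at day 7, 237, 253 and 139.8 at day 14, and 190.5, 386 and 195 at day 21. WT mice of day 14 were all above those of day 7, whereas the KO days overlapped.

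The Ecm1 log2 fold changes against naive were 3.95 (SE 0.3), 4.97 (SE 0.31) and 4.69 (SE 0.31) in WT mice and 3.97 (SE 0.29), 3.77 (SE 0.29) and 4.06 (SE 0.3) in KO mice, with adjusted p from 1.9e-09 to 7.1e-08. From day 7 to day 14 it rose in WT mice by 1.02 on the log2 scale (SE 0.26, adjusted p = 0.025), where 1 gene of the set was called higher and 1 lower beside 2.65% and 3.2% of all genes. That call was lost without WT day 7 mouse 1 (adjusted p = 0.099) or 3 (adjusted p = 0.09), and without WT day 14 mouse 1 (adjusted p = 0.058), 2 (adjusted p = 0.057) or 3 (adjusted p = 0.086). In KO mice the change over the same days was -0.2 (SE 0.26, adjusted p = 0.66).

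Lgals3 (ENSMUSG00000050335.17; mm10 chromosome 14, 47367751 to 47386160, plus strand, 6 exons), which encodes galectin 3, a sugar-binding lectin that macrophages secrete and that cross-links matrix glycoproteins, was not called in any comparison. WT mice had 1838, 1526 and 1549 CPM when naive, 1808, 1301 and 1624 at day 7, 1456, 1303 and 1463 at day 14, and 1286, 1293 and 1249 at day 21. KO mice had 1544, 1508 and 1592 CPM when naive, 1850, 1582 and 1144 at day 7, 1083, 1255 and 1289 at day 14, and 1351, 1175 and 1038 at day 21. In each genotype the mice of day 14 and of day 21 lay below the naive mice without overlap, and those of day 7 overlapped them. The log2 fold changes at day 14 and day 21 were -0.22 (SE 0.14, adjusted p = 0.26) and -0.36 (SE 0.14, adjusted p = 0.06) in WT mice, and -0.36 (SE 0.14, adjusted p = 0.095) and -0.38 (SE 0.14, adjusted p = 0.061) in KO mice. A model of the compared groups alone called it lower at WT day 21 (adjusted p = 0.036) and KO day 14 (adjusted p = 0.023), and leaving out KO day 21 mouse 1 called it lower at KO day 21 (-0.48, adjusted p = 0.024). Without KO day 7 mouse 3 it was called lower than at day 7 in KO mice of day 14 (-0.51, adjusted p = 0.014) and day 21 (-0.53, adjusted p = 0.01).

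Per kilobase of the reference transcript, the order of the set changed after bleomycin. The reference was the longest protein-coding transcript of each gene, 1419 bases for Lgals3 and 8315 for Fn1. Other transcripts were not tried, and the order between genes depends on this choice. In WT naive mice Lgals3 stood highest at 1154 ± 123 CPM per kb (SD, n = 3), then Tgfbi at 438 ± 13.6, Fn1 at 117 ± 40.7 and Ecm1 at 6.34 ± 1.93. The other 6 genes were under 0.3 CPM per kb, led by Col14a1 at 0.273 ± 0.00943. At WT day 7 Lgals3 (1112 ± 181) and Tgfbi (1035 ± 79.8) did not differ beyond their spread, and Fn1 followed at 674 ± 239.6. At WT day 14 Lgals3 (992 ± 63.7) and Fn1 (989 ± 255) were level within their spread. Tgfbi at 710.2 ± 52.8 was below Lgals3, but its spread overlapped that of Fn1. Ecm1 at 197 ± 20.6 and Thbs1 at 10.9 ± 5.97 followed. In KO mice Fn1 had the highest mean at day 14, 1076 ± 183 against 852 ± 78.1 for Lgals3, and at day 21, 1189.6 ± 541 against 837 ± 110.4, where the spreads of both genes overlap.

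Sparc (ENSMUSG00000018593.13; mm10 chromosome 11, 55394500 to 55423183, minus strand, 10 exons), which encodes a collagen-binding glycoprotein of remodelling tissue, was at the edge of detection in naive mice. The 3 WT naive mice held 0, 1 and 0 counts and the 3 KO naive mice 0, 3 and 8. WT mice had 3, 14 and 35 counts at day 7, 65, 35 and 73 at day 14, and 129, 83 and 62 at day 21. KO mice had 8, 10 and 9 counts at day 7, 94, 8 and 5 at day 14, and 14, 60 and 239 at day 21. In CPM each WT group lay wholly above the one before it, at 0.0969 to 0.967 at day 7, 1.12 to 1.85 at day 14 and 2.14 to 4.27 at day 21. By edgeR the WT change was not called from day 7 to day 14 (1.78, SE 1.02, adjusted p = 0.34) or day 14 to day 21 (0.96, SE 0.97). From day 7 to day 21 it was not called by edgeR (2.74, SE 1.05, adjusted p = 0.094). DESeq2 (adjusted p = 0.042) and the fit without the other groups (adjusted p = 0.031) called that rise. In KO mice single mice carried most of the counts of days 14 and 21.

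Scaled to library totals, the summed Sparc counts in WT mice were 51.1 times the naive level at day 7 (95% counting interval 8.78 to 2060), 178 times at day 14 (31.6 to 7080) and 343 times at day 21 (61.1 to 13600). In KO mice the ratios were 2.8 (1.34 to 6.24), 14.3 (7.69 to 29.6) and 33.7 (18.6 to 68.2). The edgeR log2 fold changes were 5.19 (SE 1.67, adjusted p = 0.02), 6.97 (SE 1.6, adjusted p = 0.0023) and 7.93 (SE 1.6, adjusted p = 0.00075) in WT mice. In KO mice day 7 was not called (1.45, SE 1.23, adjusted p = 0.39), while day 14 (3.98, SE 1.2, adjusted p = 0.026) and day 21 (4.97, SE 1.22, adjusted p = 0.0056) were. Without KO day 14 mouse 1 the day 14 value was 1.26 (adjusted p = 0.57), and the call was also lost without KO naive mouse 1 (adjusted p = 0.098) or 2 (adjusted p = 0.093). With limma-voom both KO calls were lost (adjusted p = 0.29 and 0.051), as was the WT call of day 7 (adjusted p = 0.19). The KO day 21 mice were also called higher than those of day 7 (3.53, SE 1.1, adjusted p = 0.035), a value of 2.18 (adjusted p = 0.22) without KO day 21 mouse 3. That call was lost too without any 1 of the KO day 7 mice (adjusted p 0.084 to 0.13), with limma-voom (adjusted p = 0.13) and when fitted without the other groups (adjusted p = 0.089). The WT day 7 call was lost without WT naive mouse 1 (adjusted p = 0.053), WT naive mouse 3 (adjusted p = 0.085) or WT day 7 mouse 3 (adjusted p = 0.098).

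**Figure D3:**
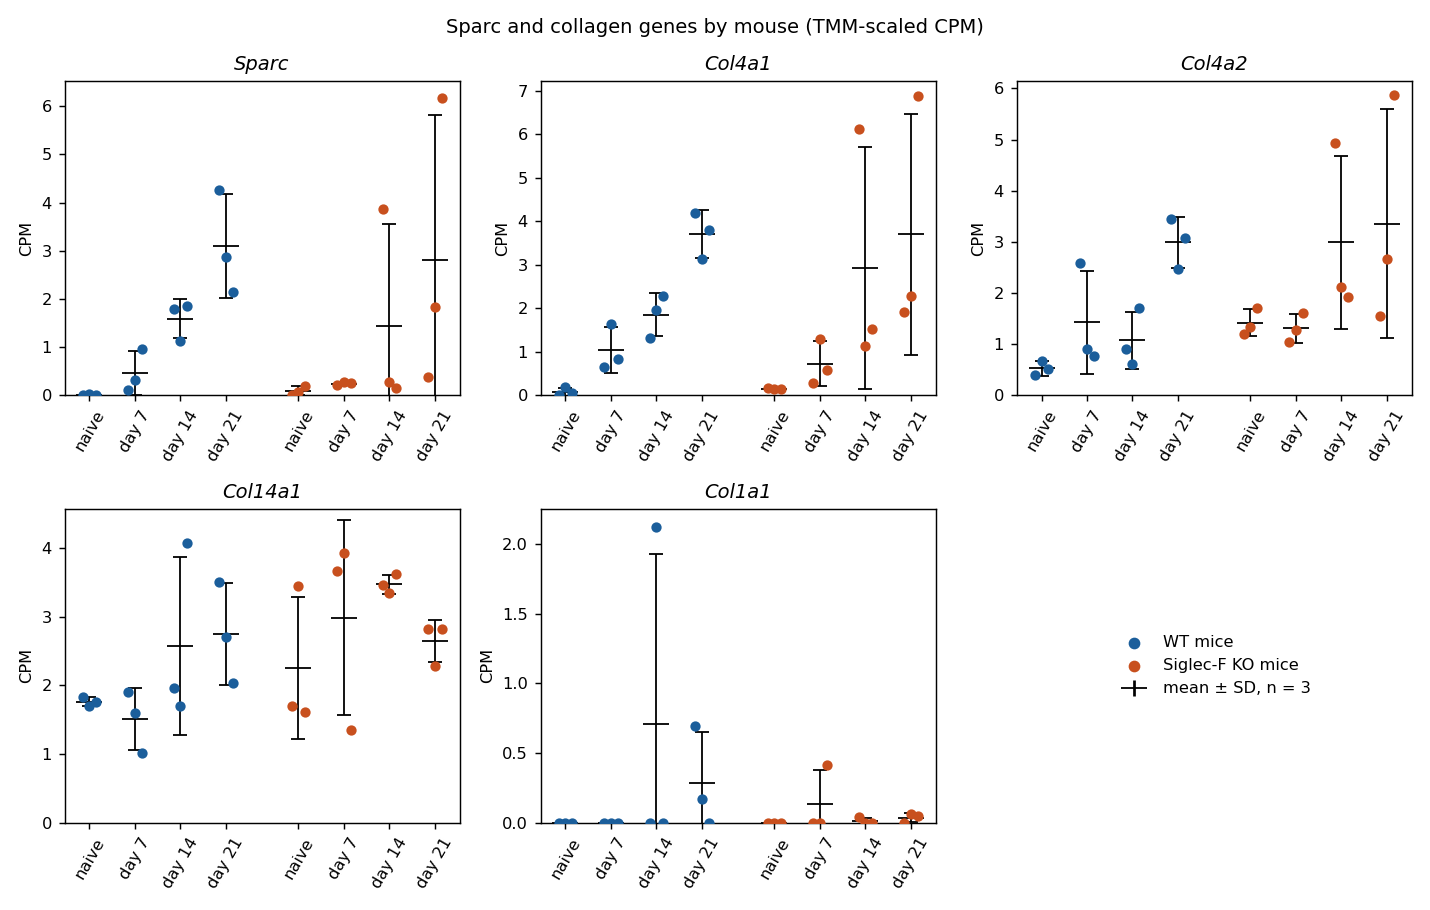
CPM of Sparc, Col4a1, Col4a2, Col14a1 and Col1a1 (y axes start at 0 and differ in range) in each of the 24 mice by group (x axis); points are mice, black bars the mean ± SD of 3 mice, cut at 0. KO day 14 mouse 1 and KO day 21 mouse 3 stand highest in their groups for Sparc, Col4a1 and Col4a2, and 17 mice have no Col1a1 count.

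Col4a1 (ENSMUSG00000031502.11; mm10 chromosome 8, 11198423 to 11312826, minus strand, 52 exons) and Col4a2 (ENSMUSG00000031503.13; mm10 chromosome 8, 11312805 to 11449287, plus strand, 48 exons) encode the chains that join to form the common collagen IV molecule. They lie head to head, and their gene models share 22 bases at their starts, so reads there may not be assigned with certainty. Naive mice held 0, 6 and 3 Col4a1 counts in WT and 7, 6 and 6 in KO. WT mice had 20, 74 and 30 counts at day 7, 48, 61 and 90 at day 14, and 127, 90 and 110 at day 21, and KO mice 11, 49 and 21, then 149, 33 and 51, then 71, 75 and 266. Every mouse given bleomycin had more Col4a1 CPM than any naive mouse.

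The Col4a1 log2 fold changes were 3.63 (SE 0.84, adjusted p = 0.0021), 4.45 (SE 0.84, adjusted p = 0.00042) and 5.45 (SE 0.85, adjusted p = 6.1e-05) in WT mice. In KO mice they were 2.25 (SE 0.76, adjusted p = 0.027), 4.26 (SE 0.77, adjusted p = 0.00052) and 4.61 (SE 0.78, adjusted p = 0.00021). The KO day 7 call was lost without KO day 7 mouse 2 (1.52, adjusted p = 0.18) and without any 1 of the KO naive mice (adjusted p 0.065 to 0.077), and with limma-voom (adjusted p = 0.22). In KO mice Col4a1 rose from day 7 to day 14 (2.01, SE 0.67, adjusted p = 0.048; 0.88, adjusted p = 0.38 without KO day 14 mouse 1). It also rose from day 7 to day 21 (2.36, SE 0.67, adjusted p = 0.021; 1.54, adjusted p = 0.16 without KO day 21 mouse 3). Both rises lost their call without KO day 7 mouse 1 (adjusted p = 0.2 and 0.12) or mouse 3 (adjusted p = 0.12 and 0.067). The fit without the other groups lost both calls (adjusted p = 0.14 and 0.11), and limma-voom lost that of day 14 (adjusted p = 0.13). In WT mice edgeR did not call the change from day 7 to day 14 (0.82, SE 0.65, adjusted p = 0.51) or to day 21 (1.82, SE 0.65, adjusted p = 0.076). DESeq2 (adjusted p = 0.033) and the fit without the other groups (adjusted p = 0.02) called the WT rise to day 21.

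Col4a2 changed less. Its counts were 10, 23 and 26 in WT naive mice, 80, 41 and 28 at day 7, 33, 19 and 67 at day 14 and 104, 71 and 89 at day 21. In KO mice they were 52, 55 and 74 when naive, 40, 48 and 58 at day 7, 120, 62 and 64 at day 14 and 57, 87 and 227 at day 21. The WT day 21 mice stood above all WT naive mice (2.49, SE 0.55, adjusted p = 0.0017). At WT day 7 the log2 fold change was 1.41 (SE 0.54, adjusted p = 0.049), and 0.67 (adjusted p = 0.38) without WT day 7 mouse 1. That call was also lost without any 1 of the WT naive mice (adjusted p 0.064 to 0.13), with limma-voom (adjusted p = 0.25), with no filter (adjusted p = 0.056) and when fitted without the other groups (adjusted p = 0.12). It was not called at WT day 14 (1.02, SE 0.54, adjusted p = 0.16) or on any day in KO mice, where it was -0.12 (SE 0.51), 1.07 (SE 0.51) and 1.25 (SE 0.51). The KO day 21 value was called without KO day 21 mouse 1 (1.59, adjusted p = 0.023). With the 3 KO mice that were lowest of the bleomycin mice on the first component left out together, Col4a2 was called higher at KO day 21 (1.6, adjusted p = 0.017). At KO day 14 that fit gave 1.82 on 1 mouse, the highest of its group.

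The balance of the pair differed between naive and bleomycin mice. Col4a1 made up 13.2% of the pair's summed counts in WT naive mice (exact 95% interval 6.23 to 23.6%), then 45.4% (39.4 to 51.5%), 62.6% (57 to 67.9%) and 55.3% (51.2 to 59.4%) on the 3 days. In KO mice the share was 9.5% (5.82 to 14.4%) when naive and 35.7% (29.5 to 42.3%), 48.6% (44.1 to 53.2%) and 52.6% (49.1 to 56.2%) after bleomycin. These intervals cover counting error of the pooled counts only, not the spread between mice. At WT day 7 the mice stood at 20, 64.3 and 51.7%. By mouse, the naive shares were 0 to 20.7% and the shares at day 14 and day 21 were 34.7 to 76.2%, without overlap. At day 7, WT mouse 1 (20%) lay within the naive range and the other 5 mice lay above it, at 21.6 to 64.3%.

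**Figure D4:**
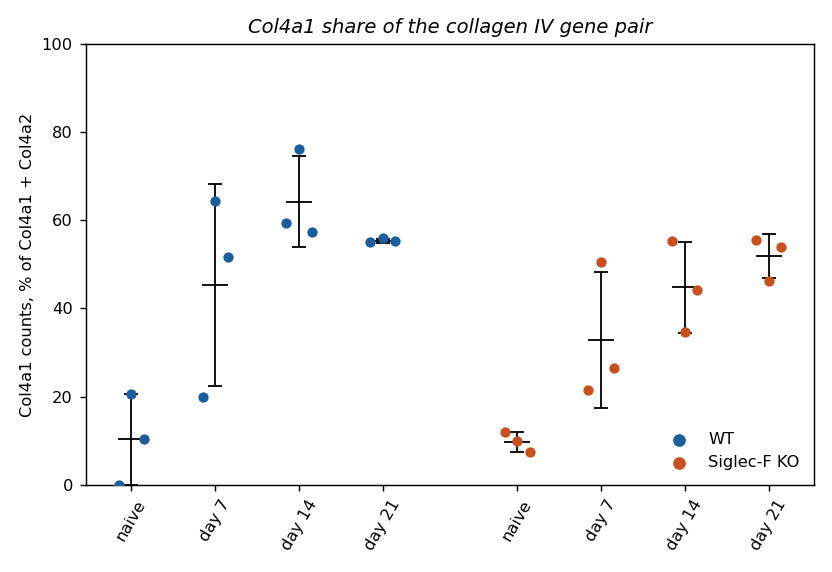
Col4a1 counts as a percent of Col4a1 plus Col4a2 counts (y axis, 0 to 100) in each mouse by group (x axis); points are mice, black bars the mean ± SD of 3 mice. Naive mice lie at 0 to 20.7% and mice of day 14 and day 21 at 34.7 to 76.2%.

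Col1a1 (ENSMUSG00000001506.10; mm10 chromosome 11, 94936224 to 94953042, plus strand, 51 exons), which encodes the main chain of fibrillar collagen I, was not detected in 17 of 24 mice. All 6 naive mice and the 3 WT mice of day 7 held 0 counts. WT day 14 mouse 2 held 66 counts and the other 2 mice of that group 0, WT day 21 mice held 21, 5 and 0, and KO day 7 mouse 3 held 15 and the other 2 mice 0. KO mice held 1, 0 and 0 counts at day 14 and 0, 2 and 2 at day 21. A count of 0 allows up to 3 counts. Col1a1 was called in no comparison over all mice, and without WT day 14 mouse 1 it was called higher than naive at WT day 14 (adjusted p = 0.044) on the counts of mouse 2.

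Col14a1 (ENSMUSG00000022371.16; mm10 chromosome 15, 55307750 to 55520803, plus strand, 48 exons), whose product coats collagen fibrils, was low and was called in no comparison. Its counts ran from 37 to 160 per mouse, and its group means from 1.51 ± 0.448 CPM at WT day 7 to 3.47 ± 0.14 at KO day 14 (SD, n = 3). WT naive mice lay close together at 1.83, 1.7 and 1.76 CPM, and KO naive mice at 1.7, 3.45 and 1.62. The gene overlaps 3 annotated genes on the other strand, and the strand setting of the read counting was not given in the sources used here. Fn1 and Thbs1 each overlap 1 such gene. Besides overlapping each other, Col4a1 and Col4a2 each overlap 1 further gene on the other strand.

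Markers of other cell types were summed in each mouse. The summed level of 12 fibroblast markers was 0 to 1.84 CPM in the 24 mice, and 6 to 10 of the 12 were at 0 in each group, with Lum, Tcf21, Inmt, Fgf10 and Cthrc1 at 0 in all 8. The summed level of 8 platelet markers, of cells that carry thrombospondin 1, was 19.3 to 47.5 CPM in naive mice and 10.8 to 25.3 after bleomycin. Of these 8, 3 to 5 were at 0 in each group, with Gp9 and Gp1ba at 0 in all 8 groups. Of 8 endothelial markers 2 to 5 were at 0 in each group, and their sum was 60.9 to 143 CPM in all mice. The 11 epithelial markers summed to 1110.3 to 1308 CPM in naive mice and 150.3 to 914 after bleomycin. For neutrophils, 5 markers summed to 57.1 to 65.4 CPM in naive mice and 49.5 to 146 after bleomycin. For lymphocytes, 6 markers summed to 0 to 0.276 CPM in naive mice and 2.14 to 23.2 after bleomycin. The summed level of 10 monocyte and recruited macrophage markers was 12.6 to 22.3 CPM in naive mice and 475 to 4637 CPM after bleomycin. That of 10 resident alveolar macrophage markers was 19914 to 26890 CPM in naive mice and 7054 to 22393 after bleomycin. The part of these cells in the response of the set was not tested.

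No gene of the set was called between KO and WT mice at any time by edgeR, DESeq2 or limma-voom. The share of all tested genes called either way by edgeR was 0.546% in naive mice, 0.00792% at day 7, 0.135% at day 14 and 0.095% at day 21. At an unadjusted p under 0.05 the counts were 1 gene of the set in naive mice, 1 at day 7, 4 at day 14 and 0 at day 21, beside 8.33%, 4.59%, 10% and 9.78% of all tested genes. Mice of the genotypes did not overlap for 2 genes in naive mice (16.8% of all tested genes), 0 at day 7 (7.98%), 4 at day 14 (15.5%) and 0 at day 21 (15.8%).

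In KO relative to WT mice the log2 fold change of Fn1 was -0.68 in naive mice (95% interval -1.38 to 0.02), 0.25 at day 7 (-0.45 to 0.95), 0.12 at day 14 (-0.58 to 0.82) and 0.59 at day 21 (-0.11 to 1.29). The mice of both genotypes overlapped at each time. The log2 change from naive in KO mice minus that in WT mice was 0.93 (SE 0.48, adjusted p = 0.82), 0.8 (SE 0.48, adjusted p = 0.62) and 1.27 (SE 0.48, adjusted p = 0.3) on the 3 days. By this test of the difference in response, edgeR, DESeq2 and limma-voom each called 0 genes of the set on any day, where edgeR called 0.00792%, 0.332% and 0.332% of all tested genes. At an unadjusted p under 0.05 the counts were 0, 1 and 1, beside 6.14%, 10.3% and 10.8% of all tested genes. For Tgfbi the intervals were narrow: -0.29 to 0.25 at day 7, -0.25 to 0.29 at day 14 and -0.36 to 0.18 at day 21, around values of -0.02, 0.02 and -0.09.

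At day 14 the KO mice lay below the WT mice without overlap for Thbs1, Ecm1 and Lgals3 and above them for Col4a2. Thbs1 stood at 8.11 to 20.1 CPM in KO and 27.9 to 97.7 in WT mice, a log2 fold change of -2.27 (SE 0.72, 95% interval -3.76 to -0.78, adjusted p = 0.24). Ecm1 stood at 139.8 to 253 CPM in KO and 343 to 418 in WT mice, a log2 fold change of -0.83 (SE 0.26, 95% interval -1.38 to -0.29, adjusted p = 0.23). For Lgals3 the value was -0.22 (SE 0.14, adjusted p = 0.67). Averaged over the bleomycin days, edgeR, DESeq2 and limma-voom called 0 genes of the set (0.507% of all tested genes by edgeR). By edgeR 0 had an unadjusted p under 0.05, beside 13% of all tested genes. Thbs1 differed by -0.71 (SE 0.39, adjusted p = 0.47), and by -1.34 (adjusted p = 0.046) without KO day 21 mouse 2.

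The 4 bleomycin mice with the lowest sums of monocyte and recruited macrophage markers also had the lowest Thbs1, but the orders of the mice did not match in every group. Their summed CPM was 2017, 1209 and 514 in KO mice 1, 2 and 3 of day 14, where Thbs1 was 20.1, 11.6 and 8.11 CPM. It was 2362, 2767 and 3777 in the WT mice of day 14, where Thbs1 was 27.9, 65 and 97.7 CPM. In the KO mice of day 21 the marker sums were 475, 2773 and 1612, and Thbs1 was 1.79, 76.8 and 14.6 CPM. The KO mice of day 7 had sums of 4532, 4637 and 2298 and Thbs1 of 163, 266 and 131 CPM. In these 4 groups the mice had the same order by both values. In the WT mice of day 21 the order was opposite, with sums of 2282, 2164 and 1941 beside 38.6, 46.4 and 53.8 CPM. In the WT mice of day 7, with sums of 3834, 3069 and 3104 beside 112, 92.7 and 133 CPM, the orders differed. Ecm1 was lowest in KO day 14 mouse 3, with 139.8 CPM, and highest in WT day 14 mouse 3, with 418, but was lower at WT day 7, 160.5 to 219 CPM, where the marker sums were 3069 to 3834. The part of these cells in the differences between genotypes was not tested.

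**Figure D5:**
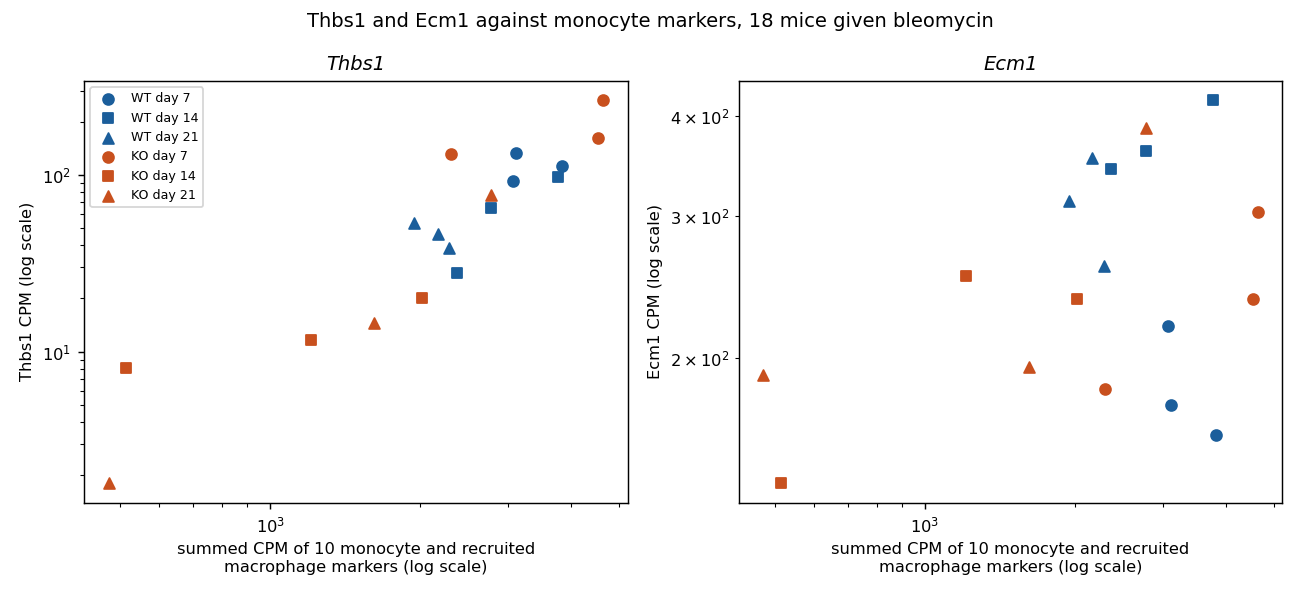
Thbs1 (left) and Ecm1 (right) CPM against the summed CPM of 10 monocyte and recruited macrophage markers, both axes logarithmic, in the 18 mice given bleomycin; colour is the genotype and shape the day. KO day 21 mouse 1 has the lowest marker sum (475) and the lowest Thbs1 (1.79 CPM), while Ecm1 at WT day 7 is 160.5 to 219 CPM at marker sums of 3069 to 3834.

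Col4a2 was higher in KO than WT mice without overlap when naive, 1.2, 1.33 and 1.71 CPM against 0.388, 0.676 and 0.515 (log2 fold change 1.41, SE 0.54, 95% interval 0.28 to 2.53, adjusted p = 0.41). At day 14 KO mice had 4.94, 2.11 and 1.91 CPM against 0.902, 0.611 and 1.7 in WT mice (1.46, SE 0.52, 95% interval 0.38 to 2.54, adjusted p = 0.3). Tgfbi was the other gene whose naive mice did not overlap, slightly lower in KO mice (-0.14, SE 0.13, adjusted p = 0.92). Sparc, Col4a1 and Col1a1 overlapped between genotypes at every time.

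Among the 18 mice given bleomycin, the genes of the set did not all vary together. Sparc and Col4a1 had a Pearson r of 0.82 over log2 CPM (Spearman rho 0.89) and Thbs1 and Tgfbi one of 0.72 (rho 0.76). Tgfbi and Col4a1 ran against each other (r -0.79, rho -0.81), as did Fn1 and Lgals3 (r -0.62, rho -0.57), while Fn1 and Thbs1 had an r of -0.06 (rho -0.18). These are descriptions over mice that share days and genotypes, of 45 pairs computed. The genes most like Fn1 across these mice, among 9173 expressed genes, were Lrp6 (r 0.9), Cux1 (0.88), Zfhx3 (0.88), Tnrc6c (0.87) and Cic (0.87). Those most like Thbs1 were Tarm1 (0.97), Aif1 (0.95) and Irf7 (0.95), and those most like Tgfbi were Psmc3 (0.93), Mybl2 (0.92) and Rbpj (0.91). The correlations were not adjusted for the Rn45s share of the libraries.

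Other genes of the matrix and its receptors were counted from lists. Of 25 receptors for fibronectin, collagen or other matrix proteins, 17 were tested. In WT mice 9, 10 and 11 were called higher on the 3 days, beside 20.2%, 18.7% and 18.8% of all tested genes. The 3 called lower on each day were Cd36, Cd47 and Mrc1, beside 15.3%, 13.4% and 13.7% of all tested genes. Their log2 fold changes by edgeR at WT day 14 were -1.51, -0.51 and -0.44 (adjusted p = 0.002, 0.0024 and 0.027). In KO mice 9, 7 and 12 were higher (19.7%, 12% and 15% of all genes) and 3, 1 and 1 lower (14.4%, 4.84% and 6.89%). Itgb5, an integrin chain that pairs with the alpha V chain, went from 294 ± 6.94 CPM in WT naive mice to 562 ± 18.8, 853 ± 74.4 and 829.9 ± 7.15 (SD, n = 3), and Itgav, the alpha V chain, from 48.7 ± 7.09 to 80.3 ± 6.05, 108 ± 5.42 and 122 ± 10.6. Itga4, the alpha 4 chain of a fibronectin receptor, rose by a log2 fold change of 0.96 at WT day 14 (adjusted p = 0.00089). Stab1, a scavenger receptor that takes up SPARC, went from 0.56 ± 0.467 CPM to 183 ± 22.8, 61.9 ± 15.5 and 41 ± 11.8. In KO mice Stab1 was 0.595 ± 0.16 CPM when naive and 262 ± 106, 20 ± 12.2 and 15.3 ± 9.67 after bleomycin.

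Of 29 other matricellular and elastic-fibre genes 11 were tested, and 3 (27.3%) were called higher and 1 (9.09%) lower at WT day 14 and again at KO day 14, where all tested genes gave 18.7% and 13.4% in WT and 12% and 4.84% in KO mice. Mfge8, a bridge between apoptotic cells and integrins, rose from 12.3 ± 2.4 CPM in WT naive mice to 122 ± 6.8, 559.8 ± 82.3 and 1049.7 ± 54.5. Ltbp3, which holds latent TGF-beta in the matrix, rose by 4.84 on the log2 scale at WT day 14 (adjusted p = 2.3e-08), and Emilin2 by 1.62 (adjusted p = 0.0014). Thbs3, a relative of Thbs1, fell by 1.71 at WT day 14 (adjusted p = 0.017) and was not called at KO day 14 (-0.5, adjusted p = 0.56). The difference between the genotypes in that Thbs3 change was 1.2 (SE 0.72, adjusted p = 0.62).

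Of 22 basement membrane genes 13 were tested, with 2 (15.4%) higher and 1 (7.69%) lower at WT day 14, both under the shares of all genes (18.7% and 13.4%). At KO day 14 6 (46.2%) were higher and 1 (7.69%) lower (12% and 4.84% of all genes), some of them at under 1 CPM. At day 14 0 of the 13 were called between KO and WT mice (0.135% of all genes). By the test of the difference in response 0 were called (0.332% of all genes). The laminin chain gene Lamc1 rose from 15.4 ± 2.43 to 81.9 ± 8.91 CPM at WT day 14, while Col15a1, a collagen of basement membrane zones, fell from 21.9 ± 2.98 to 10.1 ± 1.67. Agrn, a basement membrane proteoglycan, was 20.3 ± 2.26 CPM in WT naive mice and 23.7 ± 1.33 at day 14 (adjusted p = 0.29). In KO mice it was 16.7 ± 1.03 CPM when naive and was called higher at day 14 (24.8 ± 6.51, log2 fold change 0.57, adjusted p = 0.015) and day 21 (24.7 ± 4.86, 0.56, adjusted p = 0.012). The difference between the genotypes in the Agrn change was not called on any day (adjusted p 0.58 to 0.86). Of 16 fibrillar and associated collagen genes 5 were tested, and 1 (20% of the tested, beside 18.7% of all genes) was called higher at WT day 14, Col5a1, named here after its values were seen. Its level was very low, 0 CPM in WT naive mice and 0.33 ± 0.286 at WT day 14. At KO day 14 0 of the 5 were called higher or lower (12% and 4.84% of all genes).

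Of 17 proteoglycan and hyaluronan genes 8 were tested, and 6 (75%) were called higher and 1 (12.5%) lower at WT day 14, where 18.7% and 13.4% of all genes were, and 5 (62.5%) and 0 at KO day 14, where 12% and 4.84% were. Sdc4, a fibronectin co-receptor, rose from 0.0592 ± 0.0594 to 12.6 ± 2.36 CPM, Sdc1 from 0.0227 ± 0.0203 to 6.25 ± 2.28, and Sdc3 from 420.2 ± 32.3 to 938 ± 33.4. Cspg4 rose by 3.41 on the log2 scale (adjusted p = 1.8e-05). Of 26 genes for collagen modification and cross-linking 18 were tested, with 8 (44.4%) higher and 1 (5.56%) lower at WT day 14 (18.7% and 13.4% of all genes) and 4 (22.2%) and 0 at KO day 14 (12% and 4.84%). F13a1, the cross-linking factor XIII chain of monocytes and macrophages, rose from 0.137 ± 0.0702 to 60.1 ± 8.6 CPM, while P4ha1, Crtap and Plod1, which act on collagen in the endoplasmic reticulum, rose by 0.52 to 0.71 on the log2 scale.

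Of 8 galectins and galectin ligands besides Lgals3, 5 were tested, and 3 (60%) were called higher at WT day 14, beside 18.7% of all genes, and 2 (40%) at KO day 14, beside 12%. Lgals3bp, a glycoprotein bound by galectin 3, rose from 305 ± 28.2 to 831 ± 61.5 CPM at WT day 14 and Lgals9 from 86.2 ± 8.62 to 179.9 ± 15.5. Lgals8 was higher in KO than WT naive mice, 118 ± 5.65 against 90.8 ± 2.48 CPM (log2 fold change 0.37, SE 0.07, adjusted p = 0.022), and was not called between the genotypes on any day after bleomycin. Against naive it was called higher on all 3 days in WT mice (109 ± 4.6, 110 ± 6.53 and 124 ± 8.06 CPM) and lower at day 7 in KO mice (95.6 ± 4.61 CPM, log2 fold change -0.3, adjusted p = 0.003). The medians of the log2 fold change at WT day 14 were 1.1 for the receptors, 1.62 for the matricellular genes, 1.9 for the basement membrane genes, 2.95 for the proteoglycans, 0.57 for collagen modification and 0.39 for the galectins, where that over all tested genes was 0. Genes that had no count in a group were then set to their bound, in the way described for Col1a1. The basement membrane median became 1.81, and the other medians named here were unchanged.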

How the data were processed

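RNA of airspace macrophages from 24 mice was sequenced as 150 bp paired ends from 200 ng of total RNA, per the labels' protocols. The authors deposited expected counts, that is estimated read counts per gene, with a column for each mouse. The labels list 2 runs of each mouse. Whether a column sums both, the aligner, the counting tool and the strand setting were not given in the sources used here. The mm10 build, bcl2fastq, DESeq2 1.42.0 and limma 3.58.1 are named in the submitters' processing notes. Columns of other samples, 24 in number, were not used.

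Expected counts were rounded to whole numbers, filtered with filterByExpr (minimum count 10, minimum total 15), scaled by TMM and fitted with 8 group means by edgeR 4.0.16 (quasi-likelihood, 16 residual degrees of freedom) in R 4.3.3. P-values were adjusted by Benjamini-Hochberg over the 12634 tested genes within a comparison. The CPM used here are counts scaled to equal TMM-adjusted totals. Gene positions and transcript lengths came from GENCODE M21 and promoter sequences from RefSeq. The fit was tested on simulated counts. The mice's numbers do not mark pairs in the labels. The counts of genes of the set called and the main fold changes of its genes, except Col1a1, were repeated, where the groups allowed, with DESeq2 1.42.0, limma-voom, RLE scaling, no filter, a model of only the groups compared, a block for the mouse number, each mouse left out and, added after seeing the data, leaving out the 3 KO mice lowest of the bleomycin mice on the first principal component, for comparisons that use them. Correlations, count ratios, Col4a1 shares and genes of the lists were not repeated. The genes, lists and tests were chosen with earlier results of these data known. Named genes are the 10 of the set and the genes most like Fn1, Thbs1 and Tgfbi. Up to 4 genes a list, with the smallest p at WT day 14 and a mean of at least 5 CPM, are named too. Cd36, Cd47 and Mrc1 are named as the listed receptors called lower in WT mice.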

Additional observations from a re-analysis of the deposited data

Results flagged for a closer look

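The change from naive to day 21 in Lgals8, which encodes galectin 8, differed between the genotypes by the edgeR test of the difference in response: the log2 fold change in KO mice minus that in WT mice was -0.55 (SE 0.1, adjusted p = 0.021). In WT mice the log2 fold change was 0.46 (SE 0.07, adjusted p = 7.6e-05) and in KO mice -0.1 (SE 0.07, adjusted p = 0.37). The same difference was -0.56 at day 7 (adjusted p = 0.061) and -0.33 at day 14 (adjusted p = 0.18). All 3 values share the naive mice, which differed between the genotypes. The Lgals8 values were not repeated under other settings.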

How the results depend on the processing

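The precision is limited by 3 mice a group and by low counts, for Sparc, Col1a1, Col4a1 and Col4a2 in most mice and for Thbs1 in naive mice. For the number of genes of the set called, limma-voom gave 4 at WT day 7 and 3 at KO day 7 against naive, where edgeR gave 7 and 5. From day 7 to day 21 in WT mice edgeR called 1 gene, DESeq2 4 and a model of the compared groups alone 5. That model called 1 gene from day 7 to day 14 in KO mice and 1 from day 7 to day 21, against 3 and 4. The cause was not tested. Leaving out 1 mouse at a time moved the count over 0 to 2 for WT day 14 against day 7, 1 to 2 for WT day 21 against day 7, 1 to 3 for KO day 14 against day 7, 1 to 5 for KO day 21 against day 7, and 0 to 1 for KO against WT averaged over the bleomycin days.

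With the mouse number as a replicate block 2 genes were called from day 7 to day 21 in WT mice. The correlation of same-numbered mice between groups ran from -0.49 to 0.31, and in 0 of 16 comparisons were all of the pairs over 0.1. Under that block Col4a2 at WT day 7 against naive (adjusted p = 0.061), Col4a1 from KO day 7 to day 14 (0.055) and Sparc from KO day 7 to day 21 (0.057) missed the threshold, and Lgals3 at KO day 21 against naive was called lower (0.047).

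The sign of some uncalled changes near 0 also turned. Lgals3 at WT day 7 against naive ran from -0.16 to 0.08 when 1 mouse was left out, above 0 without WT naive mouse 1 (0.04) or WT day 7 mouse 2 (0.08). At KO day 7 it was 0 with RLE scaling and with DESeq2, and it ran from -0.18 to 0.16 (without KO day 7 mouse 3) when 1 mouse was left out. Col4a2 at KO day 7 against naive ran from -0.28 to 0.05 in the same way, above 0 without KO naive mouse 3 (0.05) or KO day 7 mouse 1 (0.02), and Fn1 in KO against WT at day 14 from -0.08 (without WT day 14 mouse 1) to 0.24.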
